A study of Mus musculus with 14 samples.

Results

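The endothelin and adrenomedullin genes of the mouse aortic valve were followed as 1 vasoactive peptide system of 10 listed genes: the ligands Edn1, Edn3 and Adm, the processing enzyme Ece1, the endothelin receptors Ednra and Ednrb, the adrenomedullin receptor Calcrl and its partners Ramp1, Ramp2 and Ramp3. They were chosen by name and matched to GENCODE symbols by their Ensembl identifiers, and all 10 were found among the 56941 genes of the count table. Each of the 10 reached the minimum mean count of 10 over the 14 libraries, as did 19145 genes in all. The list was drawn up with earlier results of these libraries known, so the values below describe these genes and lend no independent weight to their directions.

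Valve leaflets of 14 male wild-type C57BL/6J mice were sequenced, 1 library per mouse, and every mouse was fed the hypercholesterolemic Breslow Western Diet from 8 weeks of age. Untreated mice (Ctrl, n = 4) received neither compound, and the study's text calls its controls nontreated in some places and saline-treated in another. Mice of the LY group (n = 2) also received LY272015, which blocks the serotonin receptor HTR2B, at 3 mg/kg by intraperitoneal injection. Mice of the AngII group (n = 4) were infused with angiotensin II, a vasoconstrictor peptide, at 1000 ng/kg/min from an osmotic pump for 28 days, and AngII+LY mice (n = 4) received the same infusion together with LY272015. The design text of the series has the pumps of both infused groups taken out 48 hours before the valves were collected, whereas the study's text has this for a subset of infused mice, so whether all sequenced valves came from mice without pumps is not resolved. The sources give the injections once as every other day and once as 2 per week, and some dosed mice carry other compound numbers in their labels. The study's text gives more hearts per group for sequencing than there are libraries here, and the design text of the series gives more LY mice. Groups were taken from the sample titles.

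Endothelins are short peptides that are cut from larger precursors, with Ece1 making the last cut. Endothelin 1 constricts vessels and promotes matrix production through the receptor Ednra, whereas Ednrb binds all endothelins, clears them from the circulation and, on endothelium, acts through nitric oxide. Adrenomedullin opposes this as a dilator that signals through Calcrl, a receptor that must pair with a receptor activity-modifying protein: with Ramp2 or Ramp3 it binds adrenomedullin, and with Ramp1 it binds calcitonin gene-related peptide.

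The 2 endothelin ligand genes lie on different chromosomes and encode closely related peptides. The 63 bases that encode the 21 residues of each mature peptide are shown to let the ligands be compared base by base. On GRCm39 the Edn1 stretch lies at chr13:42457125-42457187 on the plus strand, inside 1 coding exon, and covers residues 53 to 73 of the 202-residue precursor. The Edn3 stretch lies at chr2:174603542-174603604 on the plus strand, also inside 1 coding exon, and covers residues 97 to 117 of the 214-residue precursor. Both are written 5′ to 3′, and capitals mark the codons whose amino acids differ between the peptides.
Edn1: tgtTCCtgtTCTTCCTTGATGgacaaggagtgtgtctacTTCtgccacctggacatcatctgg
Edn3: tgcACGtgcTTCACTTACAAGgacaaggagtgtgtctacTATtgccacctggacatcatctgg
The stretches share 50 of 63 bases (79.4%) and 15 of 21 residues. All but one of the 6 differing codons lie in the first part of the peptide, and the end of the stretch reads the same in both genes.

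The libraries held 20990655 (AngII 4) to 73128220 (AngII 2) counts. Mitochondrial transcripts made up 4.00% to 7.52% of counts in Ctrl and 8.62% to 9.76% in LY. The share was 9.83% to 25.5% in AngII, highest in AngII 3 and AngII 4 at 24.7% and 25.5%, and AngII+LY ranged from 10.1% to 20.2%. All 10 endothelial markers and all 8 interstitial fibroblast markers were detected in every library, as the tissue label implies. So were 8 smooth muscle and pericyte markers, whose summed share of counts was 0.943% in Ctrl 1 and 0.0288% to 0.183% elsewhere, and 10 cardiomyocyte markers. The summed cardiomyocyte share was 0.818% to 3.33% in Ctrl, 0.774% to 1.55% in AngII and, higher, 1.84% to 4.19% in AngII+LY, and the fibroblast share was 0.938% to 1.94%, 1.20% to 1.80% and 0.497% to 0.899% in the same order. Both shares separated AngII from AngII+LY without overlap, so these groups differed in the RNA of these markers. Whether this reflects tissue makeup was not tested, nor was its part in each result of AngII+LY against AngII below. Levels below are normalized counts, which are counts divided by the effective library size relative to its mean, and fewer cells of a type cannot be told apart from less RNA per cell in such bulk samples.

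In untreated valves the converting enzyme and the adrenomedullin receptor genes stood highest and Edn3 lowest. Per kilobase of exon, the normalized count in Ctrl was 7998 ± 3470 (SD, n = 4) for Ece1 and 5868 ± 1126 for Ramp2. Ramp3 followed at 2102 ± 928, Calcrl at 1465 ± 876, Adm at 770 ± 437, Ednrb at 675 ± 174 and Ramp1 at 509 ± 566. Edn1 at 192 ± 67.2, Ednra at 102 ± 106 and Edn3 at 0.779 ± 0.952 closed the order. The ranges over the 4 mice overlapped between all neighbours in this order except Ramp2 with Ramp3 and Ednra with Edn3, so the order within the other steps was not resolved. The level of Ramp2 is uncertain, since 28.5% of its exonic bases are shared with Vps25 on the same strand and how shared reads were assigned is not given in the sources used here.

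Adm, which encodes adrenomedullin, had the lowest adjusted p of the members in AngII valves (ENSMUSG00000030790, chr7:110226858-110229027). Its normalized counts were 1086, 2212, 1222 and 499 in Ctrl and 368, 307, 345 and 208 in AngII. Every AngII mouse lay below every Ctrl mouse, and the lowest Ctrl value came from Ctrl 4. The mean was 1255 ± 711 (SD, n = 4) in Ctrl and 307 ± 70.4 (n = 4) in AngII, a log2 fold change of -2.02 (SE 0.38) with an adjusted p of 0.0573 in edgeR's quasi-likelihood test over all genes, just outside the threshold of 0.05. No gene had a lower adjusted p in that comparison. Several genes can share 1 adjusted p, so this does not rank Adm first among all genes. DESeq2's Wald test called Adm lower at an adjusted p of 9.43e-05. Over the alternative fits the adjusted p ran from 9.43e-05 to 0.563 and the log2 fold change from -2.29 to -1.48, never above 0.

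In AngII+LY valves Adm lay between the other groups. The 4 mice had 571, 472, 684 and 766 normalized counts, a mean of 623 ± 129 (n = 4), and every one of them exceeded every AngII mouse. AngII+LY against AngII gave a log2 fold change of 1.02 (SE 0.37), with an adjusted p of 0.132 in edgeR and 0.0485 in DESeq2. The cardiomyocyte marker share (0.774% to 1.55% in AngII, at least 1.84% in AngII+LY) and the fibroblast marker share (1.20% to 1.80% in AngII, at most 0.899% in AngII+LY) separated the same mice. Against Ctrl the log2 fold change was -1.01 (SE 0.37, adjusted p = 0.342 in edgeR) and the values overlapped, since Ctrl 4 had fewer counts than 3 of the AngII+LY mice. The 2 LY mice, at 823 and 1276, lay inside the Ctrl range. AngII against Ctrl and AngII+LY against AngII share the AngII mice, so low AngII values enter both differences.

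Adipocyte markers moved with Adm in part. The summed share of the 6 adipocyte markers was 0.0120% to 0.0266% of counts in Ctrl and 0.00173% to 0.00633% in AngII, without overlap, whereas AngII+LY, at 0.00255% to 0.00720%, overlapped AngII. All 6 passed the minimum count, and 1 of them was at 0 in at least 1 AngII library and 1 in at least 1 AngII+LY library. The summed macrophage marker share spanned 0.0134% to 0.0569% in Ctrl. AngII mice, at 0.00901% to 0.0168%, overlapped Ctrl, and AngII+LY mice, at 0.0120% to 0.0196%, overlapped both groups. The single macrophage markers were split between AngII and Ctrl. Mean normalized counts were higher in AngII for Adgre1 (1387 against 1062) and Mrc1 (1570 against 1295). They were lower in AngII for Csf1r, Cd68, C1qa and Cx3cr1. The part of the adipocyte and macrophage markers in the Adm difference was not tested.

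**Figure D1:**
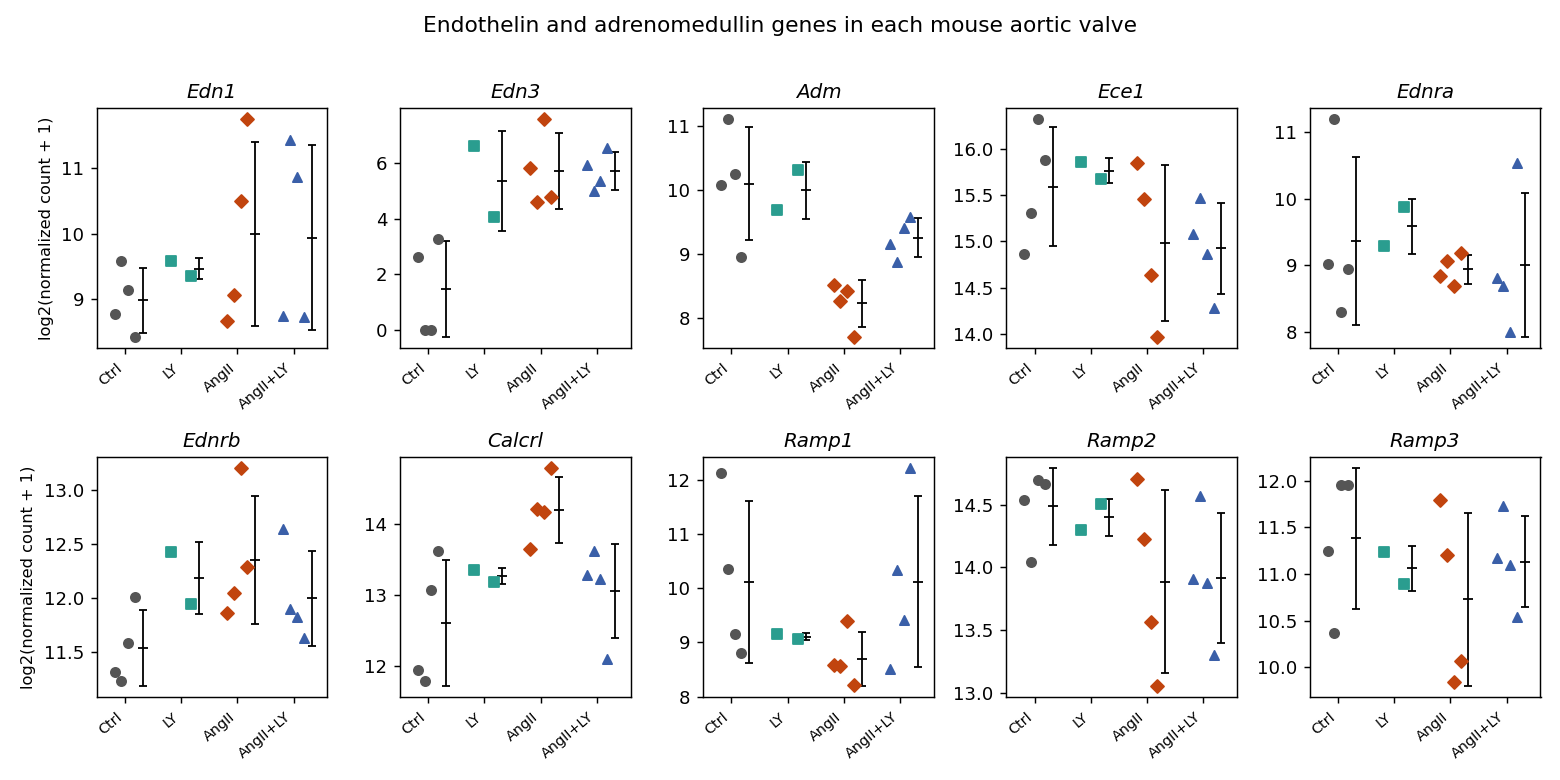
Each panel plots 1 gene, with every mouse as a point by group on the x axis and log2(normalized count + 1) on the y axis, and bars give the group mean ± SD on that scale. The 4 AngII mice lie below all Ctrl mice for Adm and above all Ctrl mice for Edn3 and, by a narrow margin, Calcrl, while the AngII values of Edn1 spread from 403 to 3441 normalized counts.

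Edn1, the gene of endothelin 1, differed more between mice of an infused group than between groups (ENSMUSG00000021367, chr13:42446301-42461466). Normalized counts were 435, 766, 563 and 341 in Ctrl and 763 and 652 in LY. In AngII they were 403, 534, 1450 and 3441, and in AngII+LY 428, 2758, 1856 and 420. Thus 2 of 4 mice in each infused group exceeded every mouse without infusion, and the other 2 lay within the Ctrl range. The means were 526 ± 184 in Ctrl, 1457 ± 1402 in AngII and 1365 ± 1148 in AngII+LY (n = 4 each). Log2 fold changes were 1.46 (SE 0.69, adjusted p = 0.203 in edgeR) for AngII against Ctrl and -0.09 (SE 0.68, adjusted p = 0.959) for AngII+LY against AngII.

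The high Edn1 libraries of AngII were AngII 3 and AngII 4, those with the highest mitochondrial share. Without both of them the log2 fold change against Ctrl was -0.17. In AngII+LY the order was different: the mouse with the highest mitochondrial share (20.2%, AngII+LY 1) had 428 Edn1 counts, and the high mice AngII+LY 2 and AngII+LY 3 had shares of 10.1% and 11.8%. The summed endothelial marker share ran against Edn1 in AngII, at 0.140% in AngII 4, where Edn1 was highest, and 0.279% in AngII 1, where it was lowest. In AngII+LY it ran with Edn1, at 0.314% and 0.196% in the high mice AngII+LY 2 and AngII+LY 3 and 0.167% and 0.123% in AngII+LY 1 and AngII+LY 4. The part of the mitochondrial and endothelial shares in the Edn1 values was not tested.

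Edn3, which encodes endothelin 3, the ligand that acts through Ednrb in neural crest cells, was close to the detection limit in untreated valves (ENSMUSG00000027524, chr2:174602088-174625835). The counts as deposited were 6, 0, 0 and 12 in Ctrl, and a count of 0 allows up to 3 counts, equal to 2.50 normalized counts in Ctrl 2 and 3.24 in Ctrl 3. In AngII they were 54, 34, 157 and 8, in AngII+LY 44, 26, 28 and 96, and in LY 126 and 18. On the normalized scale Ctrl reached at most 8.61, and the lowest value in any treated mouse was 15.7 (LY 2), so each treated group lay above Ctrl. Against Ctrl the log2 fold change was 4.34 (SE 1.24, adjusted p = 0.0724 in edgeR) for AngII, 3.94 (SE 1.22, adjusted p = 0.288) for AngII+LY and 3.95 (SE 1.32, adjusted p = 1) for LY. All 3 comparisons share the Ctrl libraries, so 2 zeros there enter each of them. With limma on log2 CPM with a pseudocount of 0.5 the AngII value was 1.45, so the size of the Edn3 difference depends on how low counts are treated.

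Ece1, the endothelin-converting enzyme, ranged from 29745 to 82062 normalized counts in Ctrl and from 15978 to 59261 in AngII. The values were 59261, 45226, 25539 and 15978 in AngII 1 to AngII 4, so the 2 mice with the high Edn1 had the low Ece1. AngII+LY showed no such inverse order, since AngII+LY 2 had both the highest Edn1 and the highest Ece1 (45510) and AngII+LY 4 the lowest of both (19935 for Ece1). The groups overlapped, with a log2 fold change of -0.54 (SE 0.40, adjusted p = 0.419 in edgeR) against Ctrl. AngII+LY, at 19935 to 45510, differed from AngII by a log2 fold change of -0.17 (SE 0.40, adjusted p = 0.848).

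Ednra, the receptor through which endothelin 1 constricts smooth muscle, was set in its group means by single libraries. Normalized counts were 520, 2351, 314 and 494 in Ctrl, 628 and 943 in LY, 456, 534, 412 and 579 in AngII, and 446, 411, 253 and 1490 in AngII+LY. Ctrl 2 and AngII+LY 4 stood far above all other mice of their groups. The same libraries held the highest normalized counts of Myl7, the atrial myosin light chain of cardiomyocytes, with 208649 in Ctrl 2 and 155866 in AngII+LY 4 against at most 35811 in the other 12 libraries. Myl7 was picked after its values had been seen, and not every cardiomyocyte marker followed Ednra. Myl2 was at 197160 to 303352 in AngII+LY and at most 162861 in Ctrl. The summed cardiomyocyte share was highest in AngII+LY 4 (4.19%) and Ctrl 2 (3.33%), but AngII+LY 3, with the lowest Ednra, had 3.17%. The log2 fold change of AngII against Ctrl was -0.89 (SE 0.62, adjusted p = 0.386 in edgeR) with all mice and 0.16 without Ctrl 2. That of AngII+LY against AngII was 0.40 (SE 0.61, adjusted p = 0.752) with all mice and -0.42 without AngII+LY 4. The part of atrial muscle in these Ednra values was not tested. Of the exonic bases of Ednra, 27.2% lie opposite Gm45714 on the other strand. The same is true of 31.9% of those of Adm, opposite Gm72687, and 21.2% of those of Edn1, opposite Gm60910. Whether strand was used in counting is not stated.

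Ednrb, the second endothelin receptor, was the more abundant of the pair in every mouse, also per kilobase of exon. Its normalized counts were 2546, 2402, 3065 and 4126 in Ctrl, 3721, 4244, 9449 and 5000 in AngII, 6389, 3816, 3625 and 3174 in AngII+LY, and 5497 and 3956 in LY. AngII 3 was the highest of all mice, and AngII 1 lay below Ctrl 4, so the groups overlapped. The log2 fold change of AngII against Ctrl was 0.88 (SE 0.31), with an adjusted p of 0.108 in edgeR and 0.0309 in DESeq2, and it was 0.39 without AngII 3 and AngII 4. AngII+LY against AngII gave -0.40 (SE 0.31, adjusted p = 0.478 in edgeR). Ednrb is also a gene of melanocytes. The summed share of 7 melanocyte markers was highest in Ctrl 1 (0.0468%), where Ednrb had 2546 normalized counts. Next came AngII 2 (0.0220%), where Ednrb had 4244. The part of melanocytes in these values was not tested.

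Calcrl, the shared receptor of adrenomedullin and calcitonin gene-related peptide, stood opposite to Adm (ENSMUSG00000059588, chr2:84160957-84255755). Its normalized counts were 3937, 3549, 8592 and 12603 in Ctrl and 12780, 18844, 18323 and 28009 in AngII. The 2 groups did not overlap, but AngII 1 exceeded Ctrl 4 by little. The mean was 7170 ± 4286 in Ctrl and 19489 ± 6308 in AngII (n = 4 each), a log2 fold change of 1.44 (SE 0.41) with an adjusted p of 0.0706 in edgeR and 0.00456 in DESeq2. In AngII+LY the values were 9946, 12538, 9581 and 4415, all below every AngII mouse though close to AngII 1 for AngII+LY 2, with a log2 fold change of -1.10 (SE 0.41) against AngII and an adjusted p of 0.137 in edgeR and 0.0433 in DESeq2. Between the same mice the fibroblast marker share was lower in AngII+LY and the cardiomyocyte marker share higher, both without overlap. The LY mice had 10387 and 9321, inside the Ctrl range.

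The Calcrl difference changed with correction for base composition. Calcrl transcripts hold 37.8% G and C, the lowest share of the 10 members. A GC share was known for 99.5% of the 19145 genes tested. Over these, the log2 fold change of AngII against Ctrl and the GC share had a Spearman rho of -0.55 across genes, which are not independent replicates. A smooth correction for GC within each library moved the median log2 fold change of all genes from -0.06 to 0.09, and values after it are to be read against that shift of 0.15. After it, Calcrl was at 4035, 4498, 12072 and 10754 in Ctrl and 10803, 13159, 12216 and 15603 in AngII, with overlap, and its log2 fold change was 0.72 (adjusted p = 0.438 in edgeR). The corrected value of AngII+LY against AngII was -0.34 (adjusted p = 0.734). For Adm, with 52.2% G and C, AngII still overlapped neither other group after the same correction, at 278 to 396 beside 438 to 1726 in Ctrl and 453 to 672 in AngII+LY. The corrected log2 fold changes of Adm were -1.59 (adjusted p = 0.110 in edgeR) for AngII against Ctrl and 0.86 (adjusted p = 0.242 in edgeR) for AngII+LY against AngII.

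Ramp1, which turns Calcrl into the receptor for calcitonin gene-related peptide, was high in a few libraries only. Normalized counts were 4490, 1315, 567 and 449 in Ctrl, 568 and 534 in LY, 383, 379, 669 and 298 in AngII, and 365, 1291, 684 and 4741 in AngII+LY. The 4 values above 1000 came from Ctrl 1, Ctrl 2, AngII+LY 2 and AngII+LY 4. The same 4 libraries held the 4 highest normalized counts of Myh11, the myosin heavy chain of smooth muscle: 78076, 10735, 15572 and 12458, against at most 3104 in the other 10. Ramp1 had a log2 fold change of -1.98 (SE 0.79, adjusted p = 0.142 in edgeR) for AngII against Ctrl and 2.03 (SE 0.79, adjusted p = 0.153) for AngII+LY against AngII. Without Ctrl 1 and Ctrl 2 the first was -0.23, and without AngII+LY 4 the second was 0.85. The part of smooth muscle in these values was not tested.

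**Figure D2:**
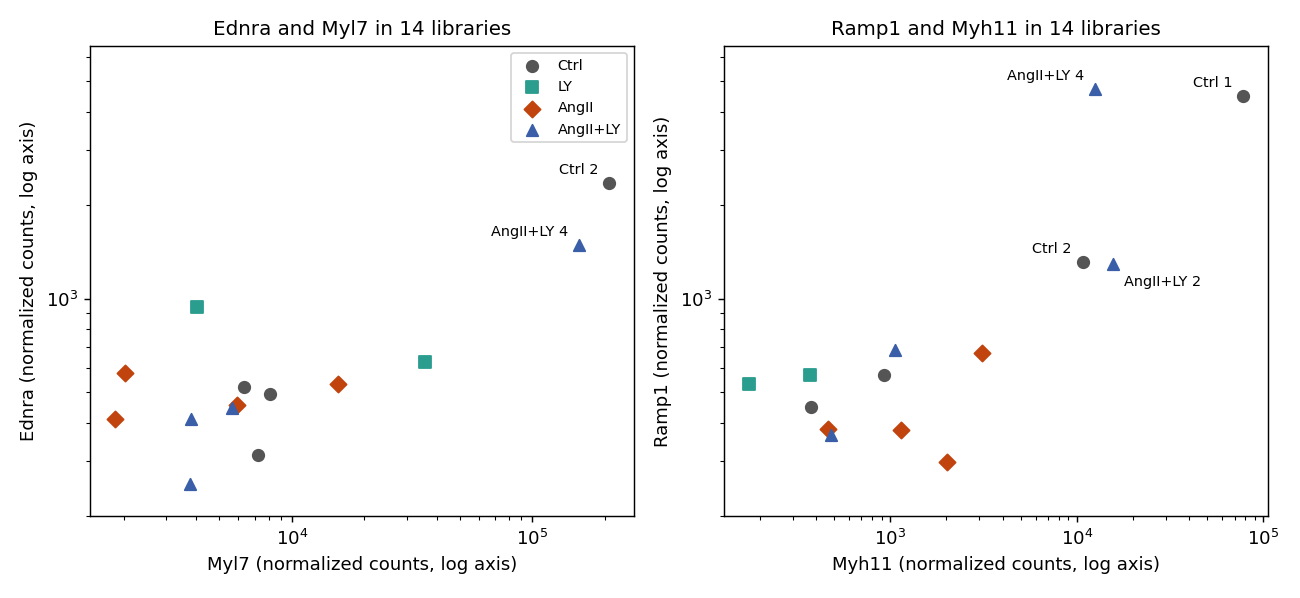
Each point is 1 of the 14 libraries, coloured by group, on log axes of normalized counts, with Ednra against the cardiomyocyte gene Myl7 on the left and Ramp1 against the smooth muscle gene Myh11 on the right. The 2 highest Ednra libraries are those with 208649 and 155866 Myl7 counts, and the 4 libraries with over 1000 Ramp1 counts are those with 10735 to 78076 Myh11 counts. The marker gene in each panel was picked after these values had been seen.

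Ramp2 and Ramp3, which make Calcrl an adrenomedullin receptor, overlapped between all groups. Ramp2 had 16851 to 26577 normalized counts in Ctrl and 26725, 19119, 12089 and 8497 in AngII 1 to AngII 4, and its log2 fold change of AngII against Ctrl was -0.49 (SE 0.33, adjusted p = 0.380 in edgeR). Ramp3 had 1324 to 3971 in Ctrl and 3549, 2365, 919 and 1069 in AngII, with a log2 fold change of -0.56 (SE 0.43, adjusted p = 0.441). In both genes the low values were again those of AngII 3 and AngII 4, and without these mice Ramp3 was at 0.02. After GC correction the log2 fold change was -0.02 for Ramp2 and -0.12 for Ramp3. For AngII+LY against AngII it was -0.04 (SE 0.33, adjusted p = 0.967) for Ramp2 and 0.24 (SE 0.43, adjusted p = 0.787) for Ramp3 without correction.

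Taking the 10 members together, none was called in any of the 4 comparisons by edgeR at an adjusted p under 0.05 with an absolute log2 fold change above 0.5, where the background was 0% of 19145 genes in each. In AngII against Ctrl, 5 members (Edn3, Adm, Ednrb, Calcrl and Ramp1) had an unadjusted p under 0.05, against 25.2% of all genes. Groups did not overlap for 3 members, against 15% of all genes: Edn3 and Calcrl were higher (7.46% of all genes) and Adm lower (7.56%). Edn3 enters these counts although it passed the minimum count only through the treated groups. DESeq2 called 3 members, against 13.8% of all genes, with Calcrl and Ednrb higher (9.15%) and Adm lower (4.69%), and gave no adjusted p for Edn3. The median log2 fold change was -0.52 over the members and -0.06 over all genes tested.

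In AngII+LY against AngII, 3 members (Adm, Calcrl and Ramp1) had an unadjusted p under 0.05, against 22.5% of all genes, and 2 did not overlap, against 11.1%: Adm was higher (5.45% of all genes) and Calcrl lower (5.66%). DESeq2 called the same genes, against 10.8% of all genes (5.3% higher and 5.47% lower), and the median was -0.06 over the members and -0.02 over all genes. In AngII+LY against Ctrl, Edn3 and Adm had an unadjusted p under 0.05, against 11% of all genes, Edn3 alone did not overlap, against 8.16% of all genes (3.27% higher), and DESeq2 called 0 members, against 1.79%. In LY against Ctrl, which rests on 2 LY mice, Edn3 alone passed an unadjusted p under 0.05, against 1.39% of all genes, and alone did not overlap, against 12% (5.64% higher), and DESeq2 called 0 members, against 0.104%. Here too Edn3 enters the counts against Ctrl although it passed the minimum count only through the treated groups. These counts are read only beside their backgrounds, and no test was made over the list.

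**Figure D3:**
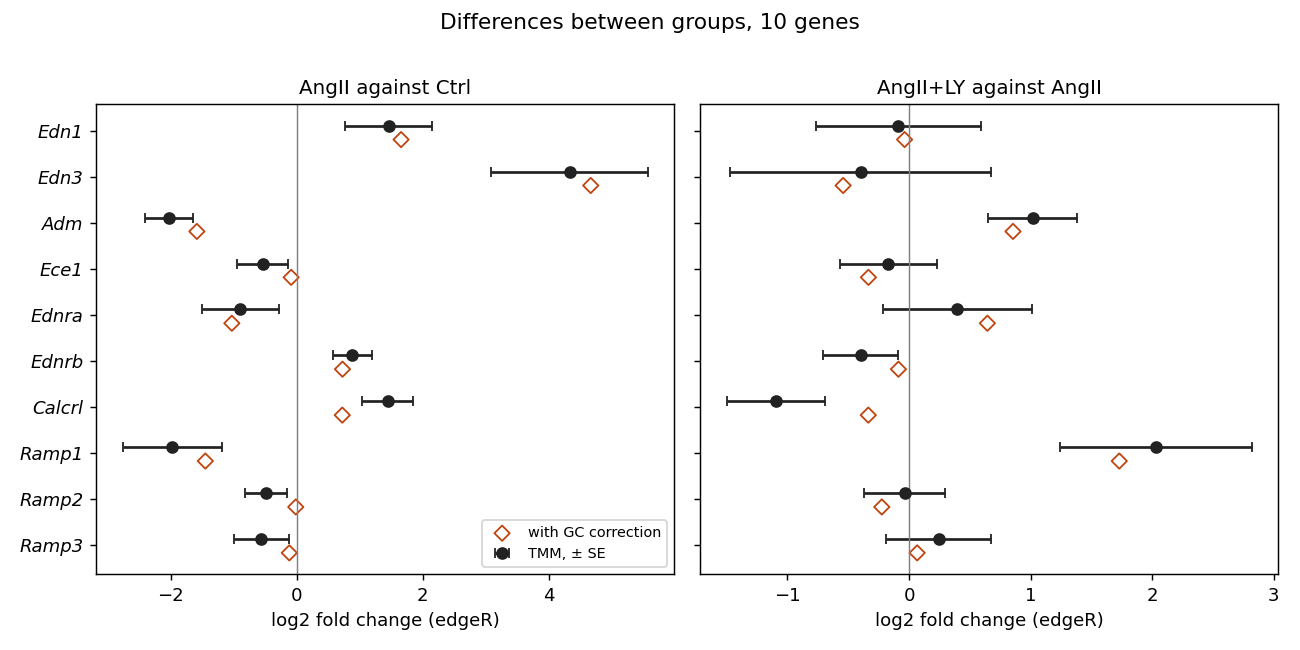
Points give the log2 fold change of each of the 10 genes from edgeR with its SE as a bar, for AngII against Ctrl on the left and AngII+LY against AngII on the right, and open diamonds give the GC-corrected values. Adm sits at -2.02 in AngII against Ctrl and at 1.02 in AngII+LY against AngII, and Calcrl moves from 1.44 to 0.72 and from -1.10 to -0.34 with the correction.

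The 27 other listed genes of these pathways comprised endothelin processing and clearing enzymes, partners of adrenomedullin and calcitonin gene-related peptide, and effectors of nitric oxide and cyclic GMP. Of these, 22 had enough counts to be tested, while Edn2, Mmel1, Ctsg, Adm2 and Iapp did not. In edgeR 0 of the 22 were called in any comparison. DESeq2 called 1 of the 22 in each: Hsp90aa1 higher in AngII against Ctrl, Prkg1 lower in AngII+LY against AngII, Calca higher in AngII+LY against Ctrl and Kel, a peptidase, lower in LY against Ctrl. The backgrounds were 13.8%, 10.8%, 1.79% and 0.104% of all genes, in the same order, and Calca and Kel are named after their values were seen. Kel was at 0 in both LY mice, but also in AngII 2 to AngII 4 and AngII+LY 2 to AngII+LY 4. Its counts as deposited were only 44, 14, 52 and 14 in Ctrl. In AngII against Ctrl 7 had a log2 fold change above 0 and 15 below, and 4 (Ide, Prkg1, Cav1 and Hsp90aa1) had an unadjusted p under 0.05, all with positive values, beside 25.2% of all genes. In AngII+LY against AngII 11 were above 0 and 11 below, and 1 (Prkg1) had an unadjusted p under 0.05, with a negative value, beside 22.5% of all genes. The medians over the 22 genes were -0.17 and -0.05.

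Prkg1, the cyclic GMP-dependent protein kinase, had 1222, 546, 340 and 710 normalized counts in Ctrl, 819, 1175, 2027 and 1499 in AngII and 566, 322, 534 and 762 in AngII+LY. All AngII+LY values were under the lowest AngII value, while Ctrl 1 lay inside the AngII range. The log2 fold change was 0.97 (SE 0.39, adjusted p = 0.145 in edgeR) for AngII against Ctrl and -1.34 (SE 0.39, adjusted p = 0.0846 in edgeR and 0.0154 in DESeq2) for AngII+LY against AngII, and after GC correction these were 0.55 and -0.82. The marker shares of fibroblasts and cardiomyocytes given above also separated AngII from AngII+LY.

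The chaperone gene Hsp90aa1, which supports nitric oxide synthase, had 5644 to 11124 normalized counts in Ctrl and 11316 to 22494 in AngII. This was a log2 fold change of 0.78 (SE 0.27), with an adjusted p of 0.104 in edgeR and 0.0299 in DESeq2. Cav1, the caveolin that restrains the synthase, had 19232 to 27010 in Ctrl and 28155 to 42009 in AngII, a log2 fold change of 0.46 (SE 0.19, adjusted p = 0.145 in edgeR). Ide, an enzyme that degrades small peptides, differed by 0.57 (SE 0.26, adjusted p = 0.196). Nos3, the endothelial nitric oxide synthase itself, had means of 19848 ± 8686 in Ctrl and 18237 ± 7996 in AngII (n = 4 each), a log2 fold change of -0.12 (SE 0.44, adjusted p = 0.894).

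**Figure D4:**
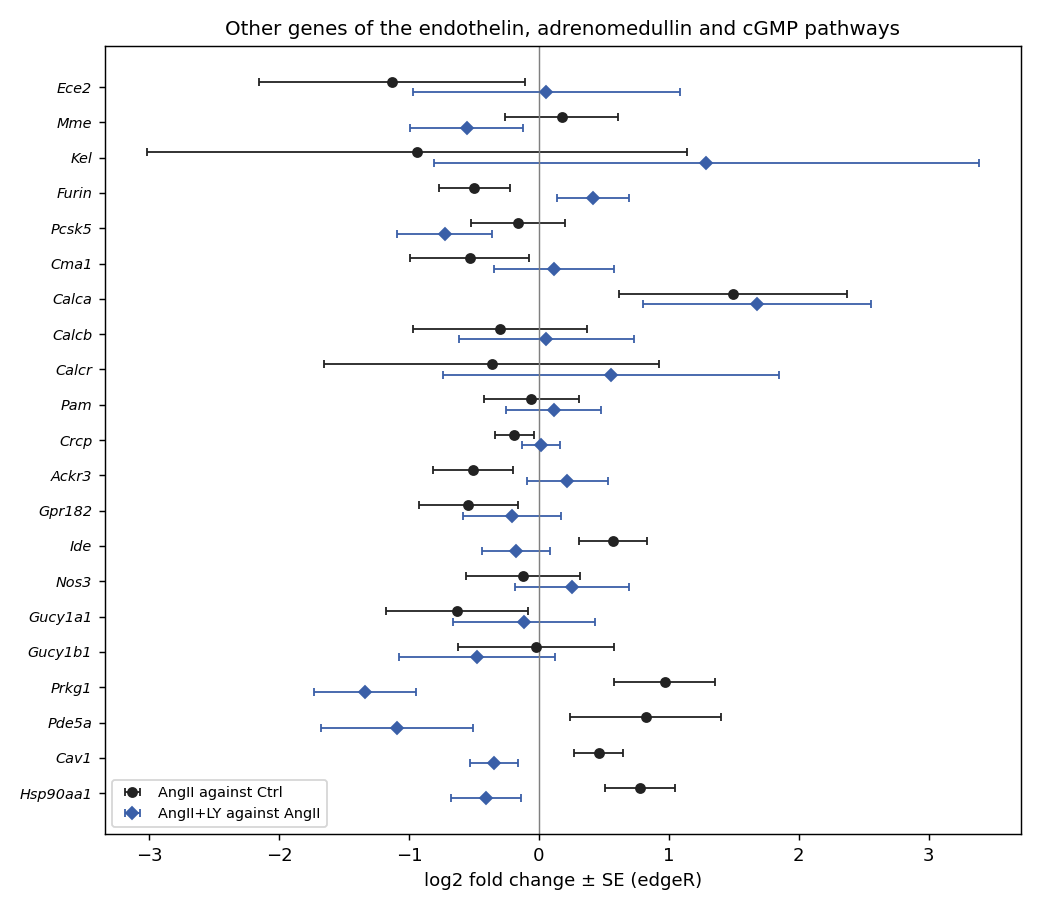
Points give the edgeR log2 fold change ± SE of 21 of the 22 other pathway genes tested, for AngII against Ctrl in black and AngII+LY against AngII in blue. Ecel1 is left out because its counts are 0 in all AngII+LY mice; Prkg1 shows a value of 0.97 in the first comparison and -1.34 in the second, which share the AngII mice.

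The genes whose levels followed a member most closely over the 14 libraries were ranked by Pearson's r of log2(normalized count + 1), as a description of libraries that share treatment, depth and tissue makeup. For Adm these were Wbp1 (r = 0.93), Zfyve21 (r = 0.92) and Nme4 (r = 0.92), and for Ednrb they were Cyp1b1 (r = 0.93), Car8 (r = 0.91) and Chac2 (r = 0.89). For Edn1 they were Tspan8 (r = 0.88), the processed pseudogene Gm46496 (r = 0.87) and Ctps1 (r = 0.85). For Ednra they were Fcamr (r = 0.89), Tbx5 (r = 0.86), a transcription factor of atrial muscle and other heart cells, and the noncoding RNA D030025E07Rik (r = 0.86), and Ctrl 2 and AngII+LY 4 carry much of the Ednra spread on which these values rest.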

How the data were processed

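RNA-seq was made from the aortic valves of 14 mice. After FastQC and trimming, the authors used HISAT2 for alignment to GRCm39 and featureCounts for the counts per gene. Their deposited table holds whole-number counts without normalization, although it is named as normalized. Whether strand was used in counting is not given in the sources used here. All 14 columns were matched to samples by title (0 were left unused). Genes were matched to GENCODE vM39, and 618 genes, which hold 0.0361% of counts, were left without a symbol.

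The 19145 genes whose mean count reached 10 were tested with edgeR 4.0.16 in R 4.3.3 by the quasi-likelihood method in 1 fit of all 4 groups, with TMM normalization. Calls needed an absolute log2 fold change above 0.5 with an adjusted p (Benjamini-Hochberg) under 0.05. With one library per mouse, p-values of this fit judge a difference against the spread between mice, estimated over all 4 groups with information shared across genes. DESeq2 1.42.0, limma 3.58.1, no filter, GC correction (loess, span 0.3), the replicate number as a block, 2-group fits and leaving out libraries were alternatives, and the scripts were tested on simulated data. The members, the other pathway and marker lists, the tests and the edgeR settings were chosen with earlier results of these data known. Named genes were all members, the other pathway genes that were the 3 highest or had an unadjusted p under 0.05 in AngII against Ctrl or AngII+LY against AngII, the 3 genes most like 4 of the members, and marker genes. Leaving out AngII 3 with AngII 4, or Ctrl 1 with Ctrl 2, was chosen after seeing the data. Sequences were read from the GRCm39 genome and the GENCODE coding exons. One gene of the other pathway lists is not reported here and was left out of their counts.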

Additional observations from a re-analysis of the deposited data

Results flagged for a closer look

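In 30 sets of 4 mice (each member in Ctrl, AngII and AngII+LY), 2 held a mouse whose gap to its nearest neighbour was, as a share of the set's whole range, above Dixon's 95% critical value, and chance gives about 1 in 20. Both concern Ednra. In Ctrl, the mouse Ctrl 2 (2351 normalized counts of Ednra, against 314 to 520 in the others) had a ratio of 0.899. In AngII+LY, the mouse AngII+LY 4 (1490, against 253 to 446) had a ratio of 0.844. These were also the 2 libraries with the highest Myl7, and their part in the ratio was not tested.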

How the results depend on the processing

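The number of genes called depended on the tool and the libraries. In AngII against Ctrl edgeR called 0 genes (4815 at an unadjusted p under 0.05), DESeq2 2648, limma 252 and edgeR without a count filter 123. Members called numbered 0 in edgeR, 3 in DESeq2, 1 in limma and 1 without the filter, and Adm was among them each time. Leaving out 1 mouse gave 0 to 1726 genes and 0 to 2 members. It was 799 genes without Ctrl 4 and 1726 without AngII 1, with Adm and Calcrl called both times, and 360 without AngII 2, with Adm called. In AngII+LY against AngII edgeR called 0 genes (4315 at an unadjusted p under 0.05), DESeq2 2062 with 2 members, limma 437 and edgeR without the filter 1. Leaving out 1 mouse gave 0 to 842 genes (842 without AngII 1) and 0 members. In AngII+LY against Ctrl edgeR called 0 (2112 unadjusted), DESeq2 343, edgeR without the filter 13 and the replicate block with GC correction 1, and leaving out 1 mouse gave 0 to 3. In LY against Ctrl edgeR called 0 (266 unadjusted) and DESeq2 20. The cause was not tested.

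Replicate numbers did not pair the mice: deviations from the group means of same-numbered mice correlated at -0.13 to 0.09 over 18 pairs. With the replicate block edgeR called 0 genes and 0 members in AngII against Ctrl (4431 genes at an unadjusted p under 0.05) and Adm was at -1.94 (adjusted p = 0.0850).

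The sign of a member's log2 fold change differed from the value given above in 4 of 190 alternative fits in AngII against Ctrl (Edn1 and Ramp3 without AngII 3 and AngII 4, Ednra without Ctrl 2 and without Ctrl 1 and Ctrl 2), in 17 of 180 in AngII+LY against AngII, in 7 of 180 in AngII+LY against Ctrl and in 15 of 160 in LY against Ctrl. Leaving out 1 mouse moved Edn1 in AngII against Ctrl between 0.60 and 1.78 and Ramp1 between -2.29 and -0.84. Low counts limit Edn3, and 2 mice limit LY.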

Other observations

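Calca, which encodes the calcitonin gene-related peptide that Calcrl binds with Ramp1, was looked at after its values had been seen. Its normalized counts were 31.2, 148, 30.3 and 93.3 in Ctrl, 123, 330, 287 and 113 in AngII, 108, 1916, 629 and 87.2 in AngII+LY, and 33.8 and 101 in LY. AngII+LY 2 and AngII+LY 3, the mice of their group with the high Edn1, stood above all others, and AngII+LY 1 and AngII+LY 4 lay within the range of Ctrl. The log2 fold change of AngII+LY against Ctrl was 3.17 (SE 0.93), with an adjusted p of 0.265 in edgeR and 0.00830 in DESeq2. Calcb, which also encodes a calcitonin gene-related peptide, was likewise looked at after its values had been seen. In the same comparison it was at -0.24 (SE 0.67, adjusted p = 0.933 in edgeR), with overlap. Ecel1, an enzyme related to Ece1, had counts of 60 and 18 in Ctrl 2 and Ctrl 3 and 62 in AngII 2, and was at 0 in the other 11 libraries.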
